A study of Homo sapiens with 3 samples.

Results

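The 9 genes described here encode parts of the MHC class I antigen presentation pathway, and they were followed through 6 RNA-seq libraries of Cal62 cells, a human thyroid tumor cell line. They are the class I chain genes HLA-B, HLA-C, HLA-E and HLA-F, the light chain gene B2M, the peptide transporter genes TAP1 and TAP2, and the immunoproteasome genes PSMB8 and PSMB9. These genes were taken from a given list by symbol, through their Ensembl identifiers, and make up 9 of the 58333 genes in the table. The remaining class I chain genes were not analysed here. All 6 libraries hold poly(A)+ RNA from this single line, grown in DMEM with 10% serum and transfected with siRNA by Lipofectamine RNAimax. The conditions were siControl (a nontargeting siRNA), siADAR1 #1 and siADAR1 #2, with 2 libraries each. The siADAR1 siRNAs have different sequences and both target ADAR, the gene of the A-to-I RNA editing enzyme ADAR1. The labels list 1 sample per transfection, and each pair of libraries is treated here as the biologically independent replicates of the study's methods.

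Class I molecules carry short peptides from proteins made inside the cell to its surface, where CD8+ T cells and natural killer cells read them. The proteasome cuts the peptides, the transporter made of TAP1 and TAP2 moves them into the endoplasmic reticulum, and there they are loaded onto a heavy chain bound to beta-2-microglobulin. Most nucleated cells express the pathway, and interferons are known to raise the transcription of its genes. Because these are bulk libraries, a lower level may mean fewer cells with the RNA or less RNA in each cell, and these cannot be told apart.

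The libraries held 30114840 to 50029763 reads on genes, so that the 3 reads a gene at 0 may still have amount to 2.81 to 4.39 normalized counts. Levels below are normalized counts, meaning reads divided by the size factor of the library. ADAR stood at 10906 and 11701 in siControl, at 1328 and 2246 with siADAR1 #1, and at 1663 and 2928 with siADAR1 #2. The transcript was thus lower in all 4 siADAR1 libraries, and in each condition replicate 2 held more of it than replicate 1. Among thyroid markers PAX8 ranged from 2542 to 15868, NKX2-1 had 0 reads in every library and thyroglobulin (TG) did not exceed 62.4. The summed level of the 7 thyroid markers was 14298 to 16115 in siControl, 10509 to 15226 with siADAR1 #1 and 2819 to 5705 with siADAR1 #2. The leukocyte markers PTPRC, CD3E and ITGAM stayed under 10 reads in every library. The sum of the 7 leukocyte markers was 301 to 457, 558 to 744 and 829 to 1598 in the same order, most of it CD68, while the sum of the mesenchymal markers VIM and FN1 was 263068 to 276609, 73494 to 126558 and 79975 to 147498. The sum of the 4 epithelial markers was 74063 to 92575, 102264 to 106155 and 67749 to 77529. The part of these differences between conditions in the results below was not tested.

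RefSeq promoters (GRCh38.p14) were found for 8 of the 9 genes, all but HLA-E, and the 250 bases before each start were searched on both strands for elements known from class I promoters. The 8 genes have 10 promoters, as TAP1 and PSMB8 have more than 1. A gene was counted when any of its promoters matched, whereas the shares of all promoters are per promoter, so the units differ. The core bound by interferon regulatory factors, AANNGAAA, matched in 6 of the 8 genes and in 20.3% of all 35116 promoters. The core of the interferon-stimulated response element, a direct repeat of GAAA with a spacer, contains the former motif and matched in 4 of the 8, against 3.02% of all promoters. The NF-kappaB consensus matched in 4 of the 8, against 9.96%, while TGACG and CCAAT each matched in 6 of the 8, against 21.2% and 32.0%. The stretches that hold the interferon and NF-kappaB matches are shown because the members' levels are compared below with those of interferon-stimulated genes, and capitals mark the matches. Starts are those of RefSeq, and the gene spans given below, from GENCODE, can begin further upstream. The stretches of HLA-B, HLA-F and B2M lie inside those spans, and that of TAP1 does so in part. HLA-B and HLA-C carry both elements in the same order, and the promoters of HLA-F, B2M, TAP1 and TAP2 hold the longer repeat.
HLA-B (chr6:31357317-31357366, minus strand): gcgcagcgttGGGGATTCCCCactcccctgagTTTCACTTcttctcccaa
HLA-C (chr6:31272226-31272274, minus strand): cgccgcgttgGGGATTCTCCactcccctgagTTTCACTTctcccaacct
HLA-F (chr6:29723268-29723297, plus strand): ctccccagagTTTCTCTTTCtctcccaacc
B2M (chr15:44711363-44711411, plus strand): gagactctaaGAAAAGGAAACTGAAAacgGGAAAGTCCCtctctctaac
TAP1 (chr6:32853757-32853848, minus strand): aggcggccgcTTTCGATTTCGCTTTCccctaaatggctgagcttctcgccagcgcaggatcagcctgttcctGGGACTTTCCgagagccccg
TAP2 (chr6:32838778-32838811, minus strand): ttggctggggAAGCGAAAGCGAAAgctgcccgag

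None of the interferon or NF-kappaB motifs was found in these windows for PSMB8 and PSMB9, or for the second start of TAP1, which says only that the letters are absent there. TAP1 and PSMB9 are transcribed away from each other, with RefSeq starts 488 bases apart. In GENCODE the span of PSMB9 begins further upstream and covers that of TAP1. A match to a motif is a description of the letters and was not tested for binding.

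The class I chains form the peptide-binding heavy chain. HLA-B (ENSG00000234745, chr6:31353872-31367067, minus strand, GRCh38) was the single member that passed the test in a comparison with siControl. Its normalized count was 751 and 775 in siControl, 1656 and 2232 with siADAR1 #1, and 564 and 1208 with siADAR1 #2. Both siADAR1 #1 libraries were above both siControl libraries, whereas the siADAR1 #2 libraries lay on either side of siControl. HLA-B rose with siADAR1 #1 (log2FC 1.33, SE 0.32, limma adjusted p = 0.0271), to 255% of the siControl mean. With siADAR1 #2 the log2FC was 0.11 (SE 0.32, limma adjusted p = 0.831). The 2 siRNAs differed from each other in a direct test, with siADAR1 #2 lower (log2FC -1.22, SE 0.32, limma adjusted p = 0.0205). The rise lost its call when any 1 of the 4 siControl and siADAR1 #1 libraries was left out (log2FC 1.12 to 1.55). Each such fit leaves 1 condition with a single library. The difference between siRNAs lost its call without siADAR1 #1 replicate 2 or without siADAR1 #2 replicate 1 (log2FC -0.67), with the same limit.

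**Figure D1:**
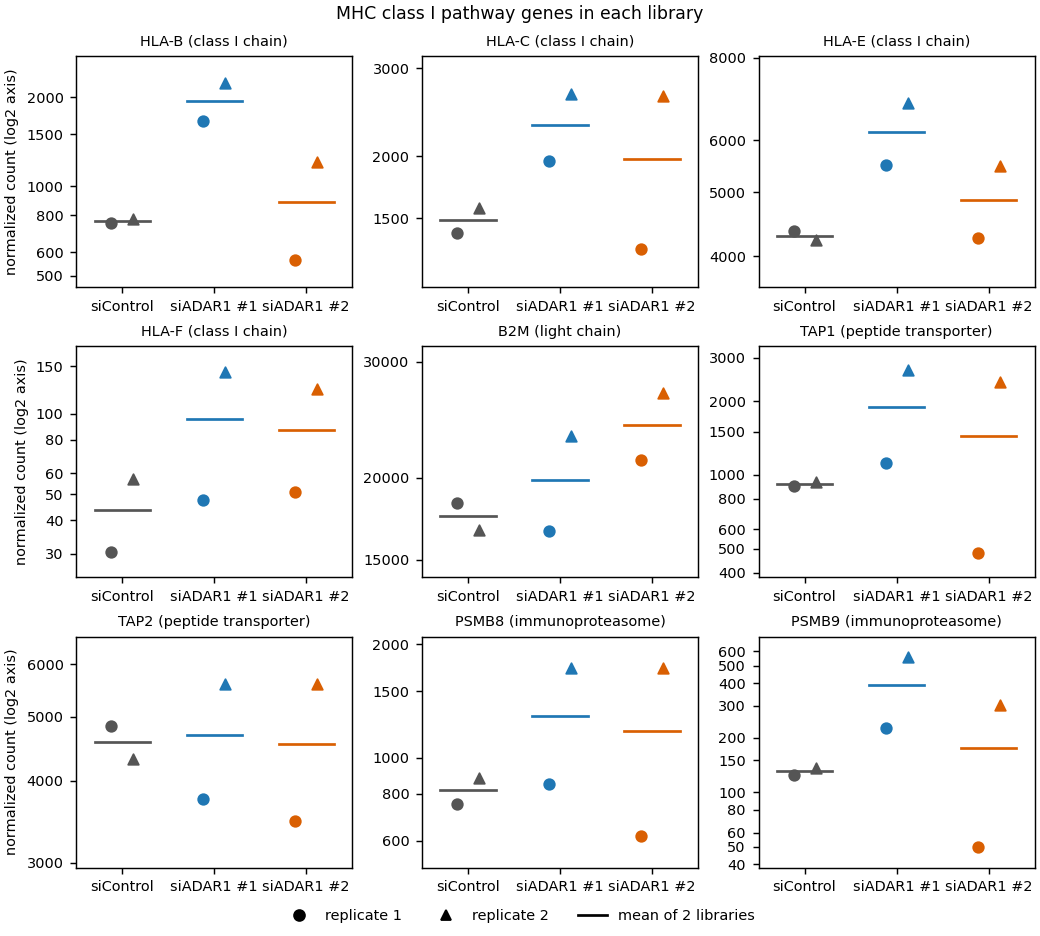
Normalized counts of the 9 genes in each library, on a log2 axis of its own for each gene; circles are replicate 1, triangles replicate 2, and bars the mean of 2 libraries. With both siADAR1 siRNAs the triangle lies above the circle for all 9 genes, and for HLA-B both siADAR1 #1 points (1656 and 2232) lie above both siControl points (751 and 775).

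HLA-C (chr6:31268749-31272130, minus strand) encodes the other classical chain in the set, which is also a ligand of killer cell receptors. Its normalized count was 1402 and 1577 in siControl, 1958 and 2663 with siADAR1 #1, and 1302 and 2637 with siADAR1 #2. The siADAR1 #1 libraries were both above siControl, and those of siADAR1 #2 were the lowest of all 6 and the second highest. Its log2FC was 0.62 (SE 0.31, limma adjusted p = 0.206) with siADAR1 #1 and 0.32 (limma adjusted p = 0.486) with siADAR1 #2. Without siADAR1 #2 replicate 1, which leaves 1 library of that condition, the latter was 0.83. Without siADAR1 #2 replicate 2, again leaving 1 library, the log2FC of HLA-C for siADAR1 #2 against siADAR1 #1 was -0.81.

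HLA-E (chr6:30489509-30494194, plus strand) encodes a nonclassical chain that presents leader peptides of other class I chains to natural killer cells. Its normalized count was 4371 and 4235 in siControl, 5509 and 6831 with siADAR1 #1, and 4262 and 5477 with siADAR1 #2. Both siADAR1 #1 libraries exceeded siControl, and siADAR1 #2 replicate 1 lay within it. The log2FC with siADAR1 #1 was 0.51 (95% confidence interval 0.15 to 0.88), just past the threshold of 0.5, and did not pass the test (limma adjusted p = 0.0596). It passed in 8 of the 16 alternatives described below and not in the other 8. Among those it passed were the replicate number as a block (limma adjusted p = 0.0264) and leaving out siADAR1 #2 replicate 1 or 2. The siADAR1 #2 libraries are not part of this comparison and bear on it through the spread pooled over the 3 conditions. With siADAR1 #2 the log2FC was 0.17 (limma adjusted p = 0.477).

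HLA-F (chr6:29722775-29738528, plus strand), another nonclassical chain, had the lowest mean of the 9 genes in each condition, with 28 to 114 reads per library. Its normalized count was 30.5 and 57.1 in siControl, 47.7 and 143 with siADAR1 #1, and 51.0 and 123 with siADAR1 #2. In each siADAR1 condition replicate 1 lay between the siControl libraries and replicate 2 was above them. The log2FC was 0.95 (SE 0.60, limma adjusted p = 0.321) and 0.89 (SE 0.60, limma adjusted p = 0.314) with siADAR1 #1 and #2. The antisense gene HLA-F-AS1 overlaps 535 bases of its exons (12.4%), stood at 74.1 and 114 in siControl and 226 and 209 with siADAR1 #2, and rose with that siRNA (log2FC 1.22, limma adjusted p = 0.0220). How reads were divided by strand was not stated, so the 2 genes may share reads.

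Class I chain genes and their pseudogenes are near-identical copies, and reads that fit several of them make the values of HLA-B, HLA-C, HLA-E and HLA-F uncertain. The pseudogene HLA-H, one such copy, had normalized counts of 206 and 226 in siControl, 293 and 490 with siADAR1 #1, and 158 and 346 with siADAR1 #2. Its lowest library (siADAR1 #2 replicate 1) and its highest (siADAR1 #1 replicate 2) were those of HLA-B. They were also those of HLA-C, TAP1, TAP2 and PSMB9, so the match does not tell whether reads were shared. The other copies measured did not share both extremes. HLA-K ranged from 98.2 (siADAR1 #1 replicate 1) to 211 (siADAR1 #2 replicate 2), HLA-J from 58.1 (siControl replicate 2) to 99.8 (siADAR1 #2 replicate 1), and HLA-L from 64.6 (siADAR1 #2 replicate 1) to 108 (siADAR1 #1 replicate 1).

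B2M (chr15:44711358-44718851, plus strand) encodes the light chain shared by all class I molecules. It had the highest level of the 9, with normalized counts of 18299 and 16663 in siControl, 16613 and 23092 with siADAR1 #1, and 21241 and 26874 with siADAR1 #2. It was the one member whose siADAR1 #2 libraries were both above both siControl libraries. The log2FC with siADAR1 #2 was 0.45 (95% confidence interval 0.04 to 0.86, limma adjusted p = 0.0955), and with siADAR1 #1 it was 0.17 (limma adjusted p = 0.575). After quantile normalization the value for siADAR1 #2 was 0.63 and passed the test (limma adjusted p = 0.0312).

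TAP1 and TAP2 together form the peptide transporter. TAP1 (chr6:32845209-32853816, minus strand) had normalized counts of 904 and 939 in siControl, 1117 and 2669 with siADAR1 #1, and 480 and 2398 with siADAR1 #2. The siADAR1 #2 libraries were the lowest and the second highest of the 6, a gap of 2.32 on the log2 scale between replicates of 1 condition. Its log2FC was 0.90 (SE 0.68, limma adjusted p = 0.402) with siADAR1 #1 and 0.22 (SE 0.68, limma adjusted p = 0.843) with siADAR1 #2. TAP2 (chr6:32821833-32838739, minus strand) had normalized counts of 4832 and 4305 in siControl, 3755 and 5611 with siADAR1 #1, and 3478 and 5606 with siADAR1 #2. For both siRNAs replicate 1 was below and replicate 2 above both siControl libraries, and the log2FC was 0.01 (limma adjusted p = 0.986) and -0.05 (limma adjusted p = 0.913). For TAP1 the difference of siADAR1 #2 from siADAR1 #1 was -0.68 with all libraries and did not pass the test. Without siADAR1 #2 replicate 2, which leaves 1 library of that condition, the difference was -1.84. PSMB8-AS1 overlaps 14.2% of the TAP1 exons, and the gene ENSG00000250264 lies over 19.5% of the TAP2 exons on the same strand.

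PSMB8 and PSMB9 encode the catalytic subunits LMP7 and LMP2, which take the place of the constitutive subunits encoded by PSMB5 and PSMB6 in the immunoproteasome. PSMB8 (chr6:32840717-32844679, minus strand) had normalized counts of 754 and 883 in siControl, 849 and 1726 with siADAR1 #1, and 617 and 1733 with siADAR1 #2. PSMB9 (chr6:32844136-32859851, plus strand) stood at 125 and 136 in siControl, 226 and 556 with siADAR1 #1, and 49.9 and 302 with siADAR1 #2. Both siADAR1 #1 libraries of PSMB9 were above siControl, and its siADAR1 #2 libraries differed 6.05-fold, one below and one above. The log2FC of PSMB9 was 1.43 with siADAR1 #1, the largest of the 9, with a 95% confidence interval of -0.29 to 3.15 (limma adjusted p = 0.229). It passed the test without siADAR1 #2 replicate 1 or 2 (limma adjusted p = 0.0465 and 0.0496). Those libraries are not part of the comparison and bear on it through the spread pooled over the 3 conditions. With siADAR1 #2 the log2FC was -0.07 (limma adjusted p = 0.954). The difference of siADAR1 #2 from siADAR1 #1 was -1.50 for PSMB9 (limma adjusted p = 0.156), and it passed the test with the replicate number as a block (limma adjusted p = 0.0356). Without siADAR1 #2 replicate 2, which leaves 1 library of that condition, this difference was -2.77. PSMB8 had a log2FC of 0.57 (SE 0.48, limma adjusted p = 0.459) and 0.34 (limma adjusted p = 0.640). The exons of PSMB8 and PSMB9 overlap by 139 bases, and PSMB8-AS1, at 13.1 to 107 normalized counts, overlaps 17.3% of PSMB8 and 5.21% of PSMB9.

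**Figure D2:**
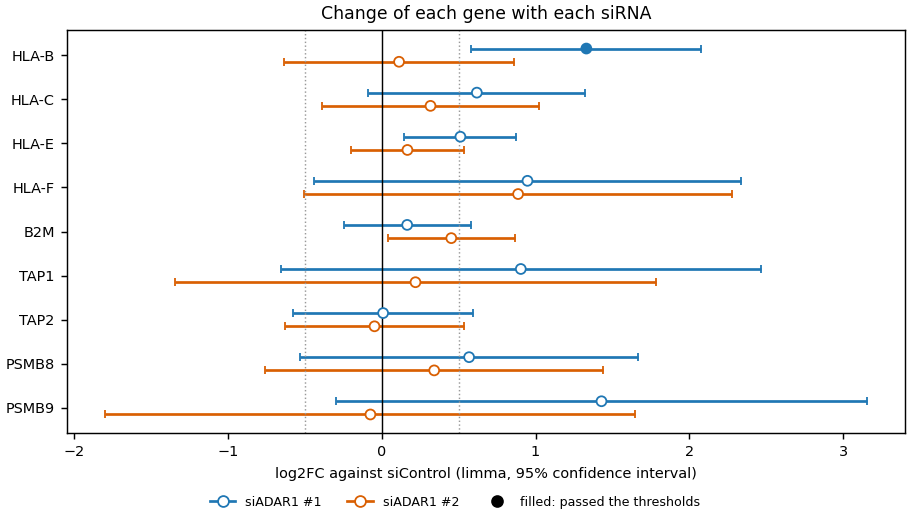
Change of each gene on the log2 scale for siADAR1 #1 and siADAR1 #2, each against siControl, with 95% confidence intervals from the limma fit of 6 libraries. HLA-B with siADAR1 #1 (1.33) is the one gene called, and the interval of PSMB9 with the same siRNA runs from -0.29 to 3.15.

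With siADAR1 #1, 1 of the 9 members was called higher and 0 lower, where 6.18% of the 20858 genes tested were called higher and 10.6% lower (16.8% in all). With siADAR1 #2, 0 members were called, against 26.6% of genes (11.1% higher and 15.5% lower), and B2M had the smallest unadjusted p of them. Between the siRNAs 1 member was called, HLA-B, lower with siADAR1 #2, against 32.8% of genes (16.7% higher and 16.1% lower). With both siRNAs as 1 group, 0 members and 0% of all genes were called by limma, although 2916 genes (14.0%) had an unadjusted p under 0.05. The targeted gene ADAR was not called in this fit either (log2FC -2.53, limma adjusted p = 0.0988), so the absence of calls there says little about the members. Every siADAR1 #1 library was above both siControl libraries for 5 members (HLA-B, HLA-C, HLA-E, TAP1 and PSMB9), against 28.4% of genes. For siADAR1 #2 this held for B2M alone, against 32.3%, and for all 4 siADAR1 libraries together it held for 0 members, against 12%. The member medians of log2FC were 0.62 with siADAR1 #1 and 0.22 with siADAR1 #2, beside -0.02 and -0.01 over all genes tested. These comparisons share the siControl libraries, and a p above the threshold does not show that a level was equal.

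The members differed between replicates of 1 condition as well as between conditions. The differences below subtract the siControl library of the same replicate number, a pairing that is assumed and that the labels do not state. In replicate 1 the difference from siControl was above 0 for 7 of the 9 members with siADAR1 #1 (46.4% of all genes) and for 2 of the 9 with siADAR1 #2 (48.1%), with medians of 0.33 and -0.29 on the log2 scale. In replicate 2 it was above 0 for all 9 members with siADAR1 #1 (49.7% of genes) and all 9 with siADAR1 #2 (49.6%), with medians of 0.96 and 0.74. Both siRNAs exceeded siControl by more than 0.5 for 6 members in replicate 2 (HLA-B, HLA-C, HLA-F, TAP1, PSMB8 and PSMB9), against 7.77% of all genes. In replicate 1 they did so for HLA-F alone, against 9.72%. PSMB9 with siADAR1 #2 gave the widest contrast, at -1.29 in replicate 1 and 1.14 in replicate 2, followed by TAP1 with -0.91 and 1.35. HLA-B with siADAR1 #1 was positive in both, at 1.14 and 1.52.

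All 9 members were higher in replicate 2 than in replicate 1 with both siADAR1 siRNAs, as were 31.0% of all genes. In siControl 6 of the 9 were, where 40.8% of all genes were. The excess was above 0.5 on the log2 scale with both siRNAs for 5 members (HLA-F, TAP1, TAP2, PSMB8 and PSMB9), against 3.36% of genes. In siControl it was above 0.5 for HLA-F alone, against 10.6%. The median excess over the 9 members was 0.06 in siControl, 0.58 with siADAR1 #1 and 1.10 with siADAR1 #2. For 7 members the siADAR1 replicate 2 libraries were the 2 highest of the 6, a pattern seen in 3.06% of genes. The exceptions were HLA-B, where both siADAR1 #1 libraries led, and HLA-E, where siADAR1 #1 replicate 1 exceeded siADAR1 #2 replicate 2. The siADAR1 #2 replicate 1 library was the lowest of all for HLA-B, HLA-C, TAP1, TAP2, PSMB8 and PSMB9. Replicate 2 libraries had fewer reads than replicate 1 in each condition and, as given above, more ADAR transcript. The part of these in the result was not tested.

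**Figure D3:**
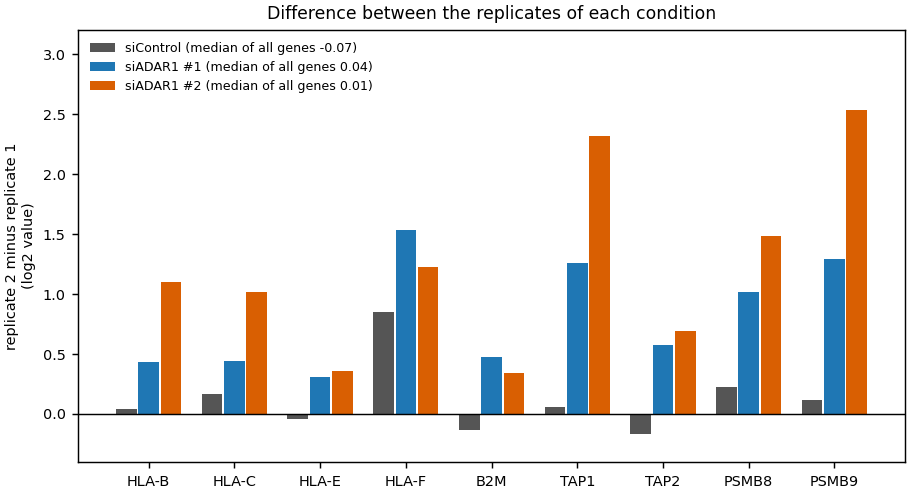
Difference of replicate 2 from replicate 1 on the log2 scale for each of the 9 genes, by condition. The member medians are 0.06 in siControl, 0.58 with siADAR1 #1 and 1.10 with siADAR1 #2, and PSMB9 and TAP1 reach 2.54 and 2.32 with siADAR1 #2.

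Across genes, levels were compared per kb of the canonical transcript. In siControl the mean normalized count per kb fell in the order B2M (18538), HLA-E (1689), HLA-C (966), TAP2 (810), PSMB8 (728), HLA-B (497), TAP1 (343), PSMB9 (128) and HLA-F (29.6). The 2 libraries of TAP2 and PSMB8 overlapped, so that this pair did not differ beyond its spread, and the other neighbours did not overlap. Per kb of all annotated exons, TAP1 came before HLA-B, so their order depends on the length used. The annotated exons of HLA-B come to 4623 bases, against 1536 in the canonical transcript. Of these exons 30.7% are overlapped on the same strand by the pseudogene DHFRP2 (median of 0 reads). The pseudogene ENSG00000271581 (median of 1 read) overlaps 14.5% on the other strand. With siADAR1 #1 HLA-B stood at 1266 and HLA-C at 1498 per kb, and their libraries overlapped. B2M was therefore the most abundant transcript per length throughout, and HLA-F had the lowest mean. With siADAR1 #2 the libraries of HLA-F (34.5 and 83.1 per kb) overlapped those of PSMB9 (49.1 and 297).

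The ratio of an immunoproteasome gene to its constitutive counterpart, per kb, gives a measure within each library. For PSMB8 over PSMB5 it was 0.114 and 0.144 in siControl, 0.111 and 0.214 with siADAR1 #1, and 0.201 and 0.551 with siADAR1 #2. Both siADAR1 #2 libraries were thus above both siControl libraries. PSMB5 itself fell with siADAR1 #2 (log2FC -1.04, limma adjusted p = 0.000612), from 6152 and 5692 normalized counts to 2847 and 2919, and so did PSMB6 (log2FC -1.07, limma adjusted p = 0.000778). For PSMB9 over PSMB6 the ratio was 0.0150 and 0.0181 in siControl, 0.0227 and 0.0545 with siADAR1 #1, and 0.0142 and 0.0748 with siADAR1 #2. The replicates of siADAR1 #2 again lay on either side of siControl. The third pair, PSMB10 over PSMB7, was 0.0240 and 0.0292, 0.0280 and 0.0256, and 0.0175 and 0.0313, with overlapping conditions. The ratios were not tested and are given as a description, and an exact two-sided permutation test of 2 against 2 libraries could not go below p = 0.333.

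**Figure D4:**
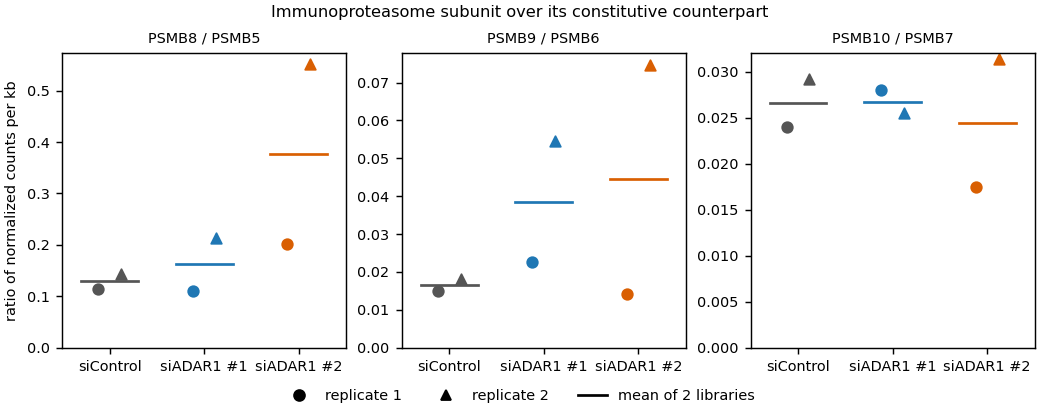
Ratio of each immunoproteasome gene to its constitutive counterpart, as normalized counts per kb, in each library; circles are replicate 1, triangles replicate 2, and bars the mean of 2 libraries. PSMB8 over PSMB5 reaches 0.551 in siADAR1 #2 replicate 2, against 0.114 and 0.144 in siControl, and PSMB10 over PSMB7 overlaps between conditions.

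The genes around the members were described by 8 lists chosen for their role. Their counts stand beside the shares of all genes given above, 6.18% higher and 10.6% lower with siADAR1 #1, and 11.1% higher and 15.5% lower with siADAR1 #2. None of 9 peptide loading and trimming genes was called with either siRNA. Among them TAPBP, which tethers empty class I molecules to the transporter, stood at 5047 and 4995 in siControl, 2862 and 5282 with siADAR1 #1, and 5123 and 7371 with siADAR1 #2. Of 8 proteasome subunits and activators, 0 were called with siADAR1 #1 and 3 fell with siADAR1 #2 (PSME3, PSMB5 and PSMB6), and PSME3 encodes a nuclear activator. Of 11 other 20S subunits, 1 fell with siADAR1 #1 (PSMB4) and 1 with siADAR1 #2 (PSMA6). The list medians of log2FC were 0.05, 0.20 and 0.07 with siADAR1 #1 and 0.07, -0.22 and -0.19 with siADAR1 #2 for loading, proteasome and other 20S genes.

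Of 14 regulators of class I transcription, RELA, an NF-kappaB subunit, rose with siADAR1 #1 (log2FC 0.59, limma adjusted p = 0.0128), and RFXANK fell. With siADAR1 #2 0 rose and 3 fell (ATF1, NFYA and NFYC). NLRC5, the coactivator of class I genes, was 199 and 423 in siControl, 82.3 and 299 with siADAR1 #1, and 145 and 707 with siADAR1 #2, higher in replicate 2 of each condition. IRF1, an activator that binds the interferon motif, was 1380 and 1186, 2093 and 3442, and 724 and 1482 in the same order. In the direct test of the siRNAs 6 of the 14 regulators were lower with siADAR1 #2 (RFX5, IRF1, RELA, ATF1, NFYA and NFYC) and RFXANK was higher, where 16.1% of all genes were called lower and 16.7% higher. For IRF1 this difference was -1.37 (limma adjusted p = 0.0161), while its change with siADAR1 #1 did not pass the test (log2FC 1.07, limma adjusted p = 0.0677).

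Of 11 interferon receptor and signalling genes, 3 rose with siADAR1 #1 (IFNAR2, IFNGR2 and SOCS3) and 0 fell. With siADAR1 #2, 2 rose (IFNGR1 and STAT2) and 2 fell (IFNGR2 and JAK1). IFNGR2, a chain of the interferon-gamma receptor, was called in opposite directions, with a log2FC of 1.02 with siADAR1 #1 and -0.94 with siADAR1 #2. Of 21 interferon-stimulated genes 20 were tested, and 0 were called with siADAR1 #1 and 2 with siADAR1 #2, both higher (IFIT2, log2FC 3.19, and IFIT3, log2FC 3.16), a share close to the 11.1% of all genes. Their median log2FC was 0.92 and 2.39, and all 20 were higher in replicate 2 than in replicate 1 with each siADAR1 siRNA, as were 18 in siControl. OAS1, an RNA sensor, shows this with 31.6 and 285 in siControl, 44.9 and 1585 with siADAR1 #1, and 134 and 3095 with siADAR1 #2. The median excess of replicate 2 in siControl was 1.40 on the log2 scale for these genes, beside 0.06 for the members.

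Of 10 class I-like molecules and natural killer ligands 9 were tested, and 2 rose with siADAR1 #1, the stress ligand ULBP2 (log2FC 1.61) and FCGRT (log2FC 1.42), the heavy chain of the neonatal Fc receptor. With siADAR1 #2, 3 fell, the stress ligands MICB, ULBP1 (log2FC -1.60) and ULBP3 (log2FC -2.02). Of 8 genes of the MHC class II pathway 5 were tested, and CIITA, the class II transactivator, fell with siADAR1 #1 (log2FC -1.03, limma adjusted p = 0.0187). The median log2FC was 0.27 and -0.13 for the class I-like list and 0.05 and 0.54 for class II.

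**Figure D5:**
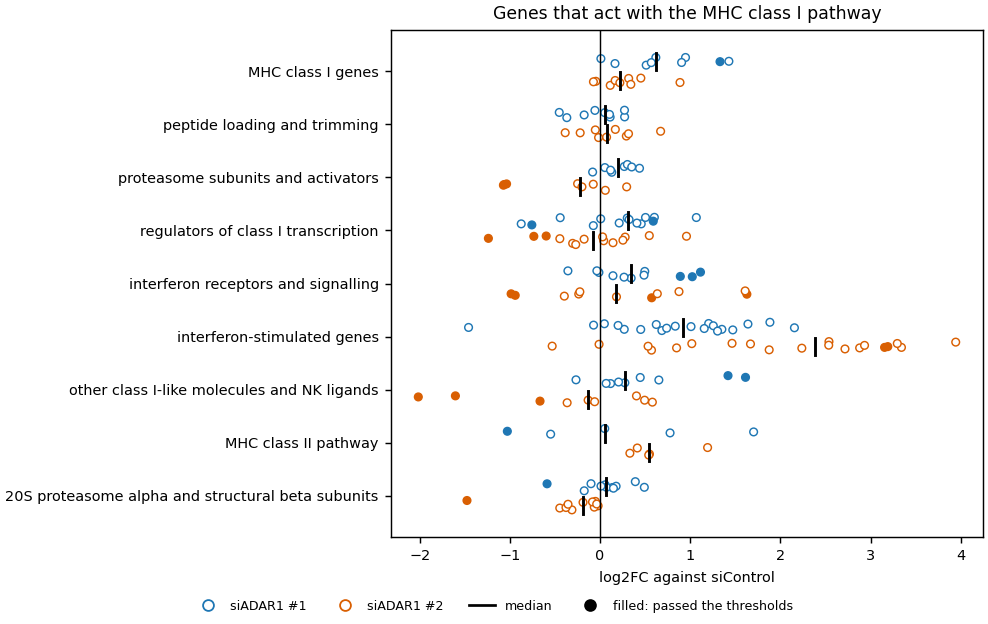
Change against siControl on the log2 scale of each tested gene in the member set and in the 8 related lists, for siADAR1 #1 and siADAR1 #2; filled points are called by limma and bars are list medians. The member medians are 0.62 and 0.22, and those of the interferon-stimulated genes 0.92 and 2.39.

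The genes most like the members were found by Pearson correlation with the mean standardized log2 value of the 9 genes over the 6 libraries, as a description. They were ZC3HAV1 (r = 0.996), TRIM21 (r = 0.996), LINC01672 (r = 0.991), BTN3A3 (r = 0.981) and UBE2L6 (r = 0.980). TRIM21 had normalized counts of 855 and 872 in siControl, 1076 and 1978 with siADAR1 #1, and 671 and 1888 with siADAR1 #2, with the same lowest and highest library as TAP1. Among the members, which enter this mean themselves, r ranged from 0.981 for PSMB8 to 0.655 for B2M. The points share the same 6 libraries, and the values carry no p.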

How the data were processed

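Poly(A)+ RNA was read as 75-bp pairs. Adapter trimming was done by the authors with Atropos, gene counting with featureCounts and normalization with DESeq2, on build GRCh38. What the authors deposited is a table of log2 values, normalized counts after a variance-stabilizing transformation. Undoing it gave whole reads for 100% of values (tolerance 0.1), between 30114840 and 50029763 per library, and these gave the normalized counts printed here. The paper prefers Salmon estimates (through Tximport) for normalization and names STAR for its splicing analysis. The values here are whole reads, and the aligner and strand setting used for them are not given in the sources used here.

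Two-sided tests on the log2 values used limma (version 3.58.1, R 4.3.3; lmFit, then eBayes with its trend option), in 1 fit of 6 libraries and 3 conditions, and in a second fit with both siRNAs as 1 group. Genes with a mean log2 value at or above log2 of 10 (a normalized count of 7.62) were tested, all 9 members among 20858 genes, with Benjamini-Hochberg adjustment over all of them. A gene was called at an adjusted p under 0.05 and a log2FC beyond 0.5 in size. In the first fit the p-values rest on 1 spread per gene, pooled over the 3 conditions of 2 libraries and moderated by eBayes across genes. A condition whose own replicates lay close or far apart thus has the same standard error as the others. In the second fit the spread also holds the difference between the siRNAs. No adjustment over the member list was made.

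Named genes are the members, ADAR, up to 3 genes of each list by smallest adjusted p, copies or overlapping genes, constitutive counterparts and the 5 genes most alike. NLRC5, IRF1, TAPBP, OAS1 and the other list genes outside this rule were named after their values were seen. The members and lists were chosen with earlier results of these data known. Symbols and lengths came from GENCODE 44 and promoters from RefSeq (GRCh38.p14).

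Whether replicate numbers pair the libraries was checked over the 20858 genes. The differences of replicate 2 from replicate 1 had correlations of 0.106 (siControl and siADAR1 #1), 0.110 (siControl and siADAR1 #2) and 0.162 (both siRNAs), so the replicate block was tried as an alternative. The other alternatives were no filter and a higher one, other scalings, other variance settings, a log2 scale with a pseudocount of 1, voom on recovered reads, the libraries compared alone, the average of both changes, and each library left out in turn. A condition that loses a library keeps 1, and its spread is then taken from the other conditions.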

Additional observations from a re-analysis of the deposited data

Results flagged for a closer look

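HLA-B was the one member whose change differed between the siRNAs in a direct test, in which 32.8% of all genes tested were called. Its call was lost in 4 of 16 alternatives. The siADAR1 #2 libraries (564 and 1208 normalized counts) were below both siADAR1 #1 libraries (1656 and 2232), with a log2FC of -1.22 for siADAR1 #2 against siADAR1 #1 (limma adjusted p = 0.0205, 2 libraries each). Groups of 2 libraries are too small for a check of single outlying libraries within a condition.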

How the results depend on the processing

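Of 576 member values under 16 alternatives, 522 kept their direction and side of the threshold, 10 lost a call, 17 gained one and 27 changed sign. Centring the libraries on their medians moved the median of all genes by 0.15 on the log2 scale for siADAR1 #1 and by -0.13 for siADAR1 #2 against siADAR1 #1. With siADAR1 #1, 1 member was called. It was 0 without the filter or without the trend. It was 2 (HLA-E added) with the filter at 50, centred or quantile-normalized libraries, robust eBayes or the replicate block. It was 3 with the 4 libraries compared alone (HLA-B, HLA-E and PSMB9). With siADAR1 #2 it was 1 after quantile normalization (B2M). Between the siRNAs it was 0 without the filter or the trend and 2 with the replicate block (PSMB9 added). The replicate block changed no other member call. The adjusted p of HLA-B with siADAR1 #1 ranged from 0.00590 (replicate block) to 0.347 (no filter). Leaving out 1 library in turn gave 0 to 3 members called with siADAR1 #1, 0 to 1 with siADAR1 #2 and 0 to 4 between the siRNAs. Over all genes, the 3502 called with siADAR1 #1 became 548 without the filter, 1347 without the trend and 386 to 3699 with 1 library left out (386 without siControl replicate 1). The 5541 with siADAR1 #2 became 2103 without the filter and 3161 to 5771, the 6838 between siRNAs 3221 without the filter, and the 0 for both siRNAs as 1 group 159 without the filter and 3585 as the average of both changes. Where the library left out belonged to a compared condition, that condition held 1 library, which limits what such calls show. The causes of these shifts were not tested.

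Signs changed when 1 library was left out, and the log2FC then ran as follows. With siADAR1 #1 it was -0.072 to 0.40 for B2M and -0.28 to 0.30 for TAP2. With siADAR1 #2 it was -0.44 to 0.66 for HLA-B, -0.19 to 0.83 for HLA-C, -0.013 to 0.35 for HLA-E, -0.94 to 1.38 for TAP1, -0.39 to 0.30 for TAP2, -0.40 to 1.08 for PSMB8 and -1.34 to 1.20 for PSMB9. For siADAR1 #2 against siADAR1 #1 it was -0.81 to 0.21 for HLA-C, -0.83 to 0.71 for HLA-F, -1.84 to 0.47 for TAP1, -0.40 to 0.29 for TAP2 and -0.97 to 0.52 for PSMB8. With both siRNAs as 1 group it was -0.12 to 0.11 for TAP2. TAP2 also changed sign with voom for siADAR1 #1 (-0.000502), after quantile normalization for siADAR1 #2 (0.11), between the siRNAs (0.030) and for both as 1 group (0.092), and after centring for both as 1 group (0.062). Depth bears most on HLA-F, which rests on 28 to 114 reads per library.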
